A study of Mus musculus with 12 samples.

Results

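Chaperonins are double-ring protein folding machines that enclose an unfolded protein in a central cavity and release it after ATP hydrolysis. The data described here are the mRNA levels of the 10 genes that encode the cytosolic chaperonin TRiC (also called CCT) and the mitochondrial chaperonin in mouse splenic CD4+ T cells. The genes were chosen by name as the 8 TRiC subunits Tcp1, Cct2, Cct3, Cct4, Cct5, Cct6a, Cct7 and Cct8, and the 2 components of the mitochondrial chaperonin, Hspd1 and Hspe1. They were found by symbol in the authors' tables and read by Ensembl identifier among the 55414 gene records with counts. The choice of these genes, and of the other gene lists below, was made with earlier results of these data known. All 10 passed the filter on low counts in every comparison.

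TRiC holds one copy of each subunit in each of its rings, and it folds actin, the tubulins, the cell cycle activators Cdc20 and Fzr1, and WD40 proteins such as the G protein beta subunits. Prefoldin passes nascent actin and tubulin to it, and phosducin-like proteins act as co-chaperones. The mitochondrial chaperonin folds proteins that have entered the mitochondrial matrix: Hspd1 (Hsp60) forms the ring and Hspe1 (Hsp10) is its lid. T cells that leave the resting state after antigen receptor signals grow, rebuild their cytoskeleton and enlarge their mitochondria before they divide, and both chaperonins serve the proteins made then.

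The mice were male, wild type and of the BALB/c strain, aged 18 weeks. In the LIP (ligature-induced periodontitis) group a silk thread had been tied around the second maxillary molars on both sides, and in the CTL group the mice were anesthetized without a ligature. Splenic CD4+ T cells were enriched by negative selection and either lysed without culture, which is day 0, or lysed on day 2 of a culture that held IL-2 and antibodies to TCRβ and CD28. In the protocol of the labels these were given at 10 ng/mL, 1 µg/mL and 1 µg/mL, while the study's methods section names other doses of IL-2 and of the antibody to TCRβ. The treatment labels of CTL 93 and LIP 96 on day 2 name anti-CD29 in place of anti-CD28, and those of CTL 97 and LIP 97 on day 2 name anti-CD30. RNA was depleted of ribosomal RNA and sequenced from 3 libraries of each group on each day, 12 in all. The libraries were CTL 88, 89 and 94 and LIP 92, 93 and 94 on day 0, and CTL 92, 93 and 97 and LIP 90, 96 and 97 on day 2. The labels do not say which libraries came from separate animals or cultures, so the p-values measure the spread between these libraries only. No cells cultured without the antibodies were among these samples, so time in culture and stimulation cannot be told apart.

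The libraries held 6249018 to 7845676 counts on day 0 and 8691699 to 12866718 on day 2, and each member had between 261 and 8120 counts in each library. The summed level of 6 CD4+ T cell markers (Cd4, Cd3d, Cd3e, Cd3g, Trac and Lck) lay between 1875 and 2471 CPM (counts of a gene relative to the scaled total of its library). The summed level of the 2 CD8 T cell markers lay between 4.43 and 13.2 CPM, and that of 10 myeloid markers between 2.51 and 15.2 CPM. Markers of B cells (6 genes) summed to 20.8 to 127 CPM and those of NK cells (6 genes) to 57.9 to 163 CPM. Of the fits of LIP against CTL that left out a single library, those without CTL 94 and without LIP 90 called the most genes. On day 0, 60 genes had an adjusted p under 0.05 for LIP against CTL, and 658 had one without CTL 94. On day 2 the count was 0 with all libraries and 2014 without LIP 90. Main counts are also given without CTL 94 or LIP 90, which were singled out by these counts. No test for outliers was made in groups of 3.

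The sequences of promoters are shown for the members with the clearest differences on day 0, because heat shock factor, a regulator of chaperone genes, binds inverted repeats of GAA. Hspd1 and Hspe1 lie head to head on opposite strands of chromosome 1. The starts of their canonical transcripts in GENCODE are separated by 107 bases, and that whole stretch (GRCm39, chr1:55127184-55127290) is printed on the plus strand, on which Hspe1 is read. For Cct5, the 100 bases before its start are printed (GRCm39, chr15:31601960-31602059) on the minus strand, on which it is read. Both run 5′ to 3′, and capitals mark every match to the 8-letter inverted repeats GAANNTTC and TTCNNGAA.
Hspd1 and Hspe1: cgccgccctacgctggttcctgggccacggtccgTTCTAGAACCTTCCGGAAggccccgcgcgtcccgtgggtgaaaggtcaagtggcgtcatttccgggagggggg
Cct5: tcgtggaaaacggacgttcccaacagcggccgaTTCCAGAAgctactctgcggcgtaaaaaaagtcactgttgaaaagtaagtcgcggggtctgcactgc

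The stretch between Hspd1 and Hspe1 held 3 matches that overlap in a row of 18 bases, TTCNNGAA, GAANNTTC and again TTCNNGAA, each sharing 3 letters with the next. In windows from 250 bases before to 50 bases after the canonical start, at least 1 of these repeats was found on either strand in 14.3% of 21770 protein-coding genes. An overlapping pair of this kind was found in 0.478% of them, and both Hspd1 and Hspe1 have one because their windows share the same stretch. Of the 8 TRiC subunits, only Cct5 had a match in its window (12.5%), and the other 7 windows held 0. The share with a match was also 12.5% among the 11988 protein-coding genes tested over the 12 libraries. Of 10 windows of the HSP90 machinery 3 held a match, and of 16 of the HSP70 machinery 7, with 0 overlapping pairs in either. The E-box CACGTG, the site of MYC and its partner MAX, was found in 7.81% of all windows and in 0 of the 10 windows of members. The CCAAT box was found in 39.9% of all windows (on either strand), and among members in those of Tcp1, Cct6a, Cct7 and Hspd1, with 3 copies in that of Cct7. A match in these letters is a description of the sequence and was not tied to binding in these cells.

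Levels were first compared among the members. CPM were scaled by the trimmed mean of M-values (TMM) over the 12 libraries, and genes were compared only after division by the median length of the annotated transcripts. Per kilobase, Cct2 was the highest in CTL cells of day 0 (84.7 ± 6.59 CPM per kb, SD, n = 3), followed by Hspe1 (84.0 ± 7.41) and Tcp1 (71.2 ± 1.84). Cct8 was the lowest (47.6 ± 3.45 CPM per kb). Cct2 and Hspe1 overlapped over the libraries, as did each neighbouring pair from Tcp1 down through Cct4, Cct3, Cct7, Hspd1, Cct5 and Cct6a, whereas Hspe1 lay above Tcp1 and Cct6a above Cct8 in every library.
In LIP cells of day 0, Cct2 was again the highest (76.4 ± 4.56 CPM per kb) and lay above Tcp1 (60.2 ± 0.951) in every library. Hspd1 was the lowest (38.2 ± 1.40 CPM per kb) and overlapped with Cct8 (39.7 ± 1.42), and Hspe1 (51.5 ± 4.73) overlapped with its neighbours Cct3 and Cct7. On day 2, Cct2 (234 ± 12.7 CPM per kb), Tcp1 (231 ± 9.06), Hspe1 (224 ± 26.4) and Hspd1 (216 ± 25.9) overlapped in CTL cells, and all were above the other 6 genes. Those 6 lay between 114 ± 6.75 for Cct8 and 152 ± 15.0 CPM per kb for Cct4, and each of their neighbouring pairs overlapped. In LIP cells of day 2, Cct2 was again the highest (268 ± 11.7 CPM per kb) by its mean and Cct8 the lowest (107 ± 36.3). Cct2 overlapped with Hspe1 there, which reached 333 CPM per kb against at most 277 for Cct2, and Cct8 overlapped with Cct3. The order depended on the length used. By the union of all exons, Hspd1 was the highest in CTL cells of day 2 and stood second, after Cct2, in those of day 0. At the bottom, by the union of all exons it was Cct3, and by the canonical transcript, chosen after the data were seen, it was Cct4, in all 4 groups.

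**Figure D1:**
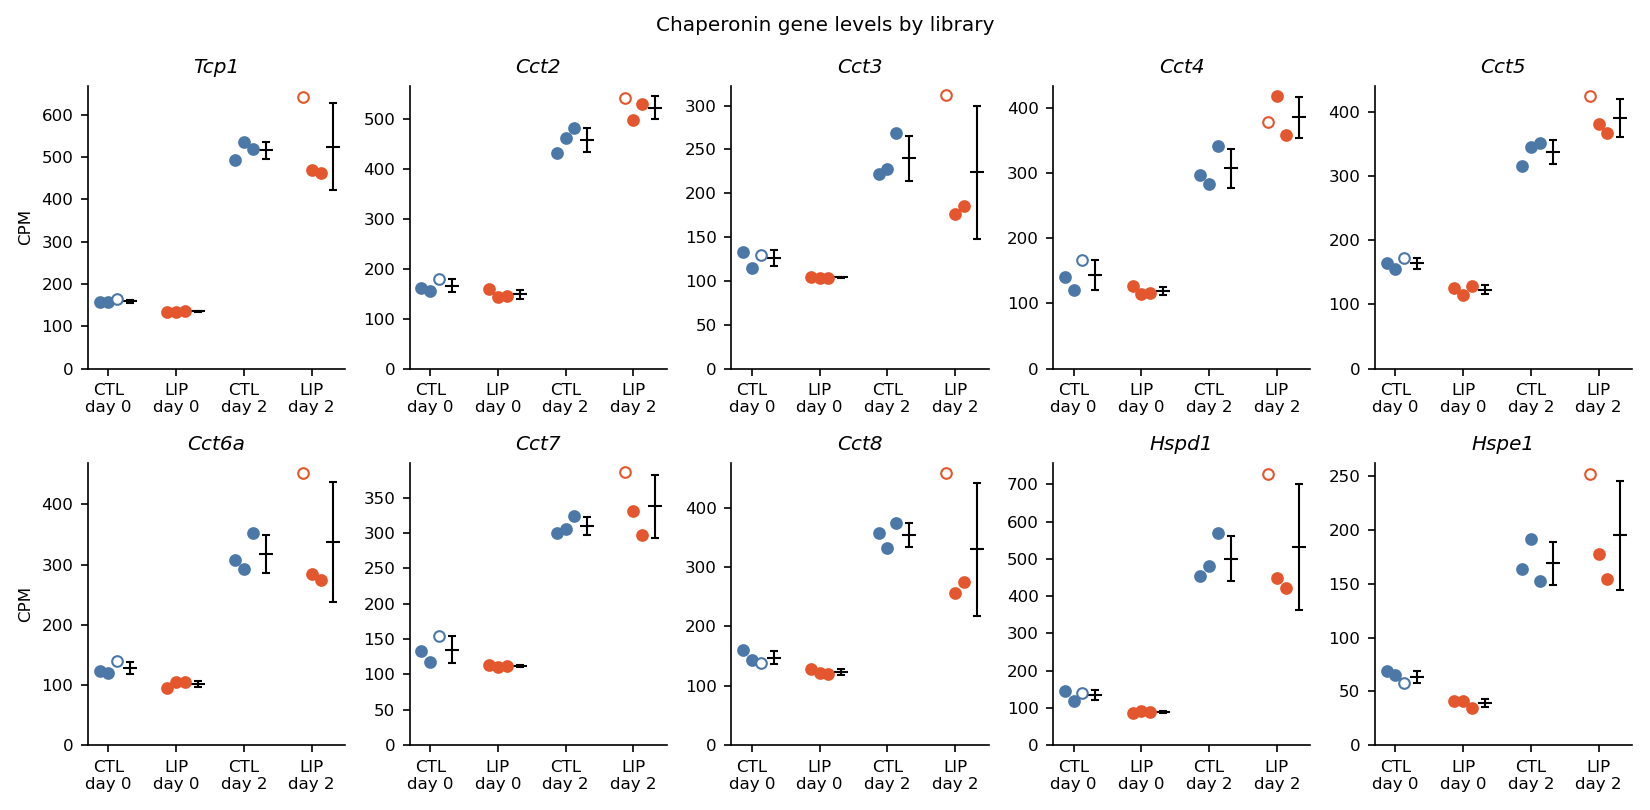
CPM (TMM over 12 libraries, linear axis from 0) of each gene in each library, with the mean and SD of each group of 3 libraries as a black bar at the right of the points. Open circles are CTL 94 of day 0 and LIP 90 of day 2. All day 2 libraries lie above all day 0 libraries in each panel, and LIP 90 is the highest library of day 2 for each gene except Cct4, where it has 378 CPM against 418 in LIP 96.

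The first comparison asked how the CD4+ T cells of ligated mice differed from those of controls before any culture. All 10 genes had lower mean levels in the LIP group, and the difference was largest for the mitochondrial pair. Hspd1 had 145, 118 and 139 CPM in CTL 88, 89 and 94, and 85.4, 91.9 and 88.1 CPM in LIP 92, 93 and 94. The groups were fully separate, with the lowest CTL library above the highest LIP library. The difference was -0.59 on the log2 scale (standard error 0.09, adjusted p = 0.01325). Its lid, Hspe1, had 68.7, 64.8 and 57.6 CPM in the CTL libraries and 41.3, 40.8 and 34.9 CPM in the LIP libraries. These ranges did not overlap either, at a log2 fold change of -0.70 with a standard error of 0.10 (adjusted p = 0.01049).

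Among the TRiC subunits, Cct5, the epsilon subunit, passed the threshold. It had 165, 155 and 173 CPM in CTL 88, 89 and 94, and 125, 115 and 129 CPM in LIP 92, 93 and 94. The lowest CTL library was thus above the highest LIP library, and the difference was -0.41 on the log2 scale (standard error 0.08, adjusted p = 0.03995). Together, 3 of the 10 members fell at an adjusted p under 0.05 in edgeR's quasi-likelihood test, where 0.370% of the 14064 genes tested fell. At an unadjusted p under 0.05, 9 of the 10 were lower, against 7.20% of all genes tested, and without CTL 94 the count was 7, against 11.0%. The groups did not overlap, with LIP lower, in 8 of the 10, against 9.85% of all genes tested.

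The other 7 subunits had log2 fold changes between -0.14 and -0.33 and did not pass. Cct6a, the zeta subunit, had 123, 120 and 140 CPM in the CTL libraries and 95.1, 104 and 104 CPM in the LIP libraries, which did not overlap (log2 fold change -0.33, adjusted p = 0.1117). Tcp1, the alpha subunit after which the complex is named, had 157, 157 and 164 CPM in the CTL libraries, against 133 to 137 CPM in LIP. These groups were apart by more than the spread within either, but the adjusted p was 0.1508 for a log2 fold change of -0.24. Cct3 (gamma), Cct7 (eta) and Cct8 (theta) were also lower in every LIP library than in every CTL library, with log2 fold changes of -0.27, -0.26 and -0.25 and adjusted p-values of 0.1508, 0.2499 and 0.1657. Cct2 (beta) had 161, 156 and 180 CPM in CTL and 160, 143 and 145 CPM in LIP, so that the groups overlapped (log2 fold change -0.14, adjusted p = 0.4475). Cct4 (delta) ranged from 121 to 167 CPM in CTL and from 114 to 126 CPM in LIP, which also overlapped (log2 fold change -0.26, adjusted p = 0.3076). The median over the 8 subunits was -0.26 and that over all genes tested was 0.01.

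These calls depended on single libraries. Without CTL 94, 4 members fell (Cct5, Cct8, Hspd1 and Hspe1), where 2.80% of all genes tested fell. The number was 0 without CTL 88, LIP 93 or LIP 94, and 1 (Hspe1) without LIP 92, although all 10 genes were lower in each of these fits. Over all genes the calls went from 60 to 17 without CTL 88, 13 without LIP 93, 15 without LIP 94 and 29 without LIP 92. The number of members called was also 0 when the 12 libraries of both days were fitted together, where 12 genes were called in all. In that fit the log2 fold change was -0.60 for Hspd1 (adjusted p = 0.44) and -0.71 for Hspe1 (adjusted p = 0.25).

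Immediate early genes, which respond within minutes to stimulation or to handling of the cells, moved on the same day. All 14 of the 16 listed that were tested had lower mean levels in LIP, and Fosb (log2 fold change -2.34), Fos (-1.89) and Jun (-1.28) passed the threshold. Without CTL 94, 10 of the 14 fell (median -0.57, against -0.42 with it). Their summed level was 2369 and 2248 CPM in CTL 88 and 89, but 1377 CPM in CTL 94, within the range of 1177 to 1401 CPM in the LIP libraries. The chaperonins did not follow CTL 94 in this: the summed level of the TRiC subunits was 1171, 1084 and 1247 CPM in CTL 88, 89 and 94, against 945.4 to 983.7 CPM in LIP. That of Hspd1 and Hspe1 was 213.8, 182.7 and 197.1 CPM in CTL and 122.9 to 132.7 CPM in LIP. The part of the immediate early genes in the result was not tested. Of the 6 NK cell markers, 5 had higher mean levels in LIP on day 0 (median log2 fold change 0.61) and 0 were called. Their summed level was 66.8 to 74.0 CPM in CTL and 57.9 to 69.2 CPM in LIP, and without CTL 94, 1 rose and 1 fell. Of the 6 CD4+ T cell markers, 0 were called on day 0, and without CTL 94, 1 fell. The summed level of 11 pancreatic acinar markers was 18.7 and 9.09 CPM in LIP 93 and 94, against 0.827 CPM in LIP 92 and 0.603 to 1.45 CPM in CTL, while the summed TRiC level was 983.7 CPM in LIP 92 and 945.4 and 966.4 CPM in LIP 93 and 94.

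Other cytosolic chaperones were lower in LIP cells as well. Of 10 genes of the HSP90 machinery, 7 fell and 0 rose (median log2 fold change -0.75), led by the co-chaperone Stip1 (-1.35, adjusted p = 1.561e-05), Hsp90aa1 (-1.18, adjusted p = 3.187e-05) and Hsp90ab1 (-1.09, adjusted p = 3.187e-05). Of 15 tested genes of the HSP70 machinery, 7 fell and 0 rose (median -0.62), led by the nucleotide exchange factor Hsph1 (-1.62, adjusted p = 2.999e-06), Hspa8 (-0.94) and the J protein Dnajb1 (-0.87). Among genes that work beside the chaperonins, 0 of 9 TRiC co-factors (prefoldin and phosducin-like genes, median -0.05) and 0 of 6 tubulin folding co-factors (median 0.08) were called. Of 16 clients of TRiC, which include actins and tubulins, 0 were called (median -0.13). In the mitochondrion, 0 of 14 other matrix chaperones and proteases (median -0.05) and 0 of 13 import genes (median 0.05) were called. Of 5 tested regulators of chaperone genes (Hsf1, Hsf2, Atf4, Ddit3, Atf5 and Myc, of which 1 was too low to test), 0 were called (median -0.07), and of 15 proliferation genes 0 were called (median 0.10). Without CTL 94, 1 regulator fell (median -0.22), 1 import gene rose, and 2 proliferation genes rose and 1 fell (median 0.30), where 1.79% of all genes tested rose and 2.80% fell. The HSP90 and HSP70 machineries kept a count of 7 lower genes each in that fit, with medians of -0.66 and -0.48.

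**Figure D2:**
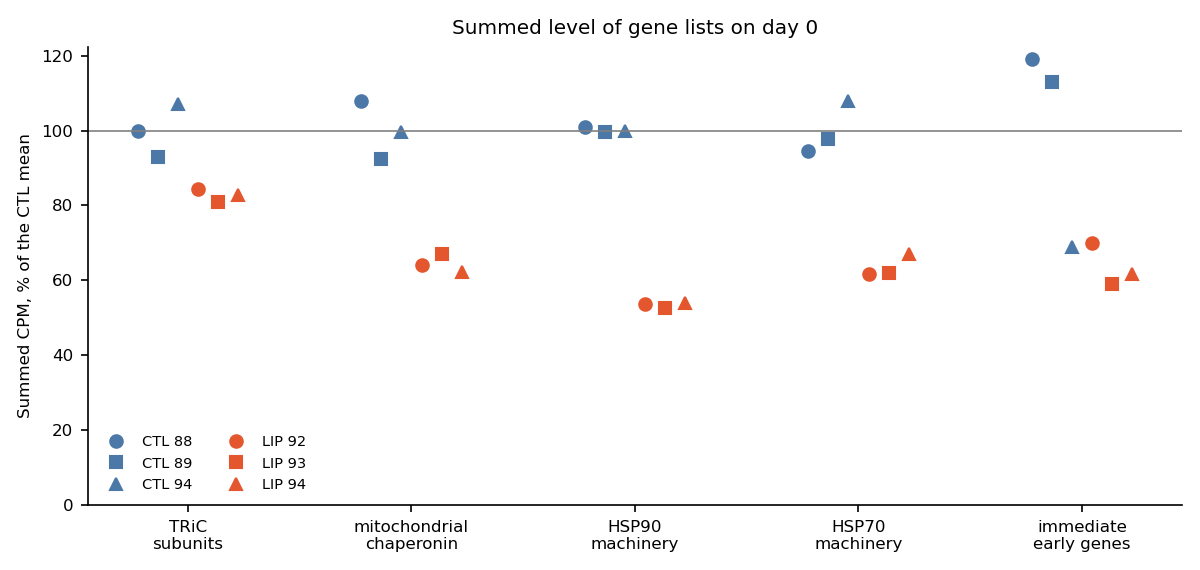
Summed CPM of each gene list on day 0 in each library, as a percent of the mean of the 3 CTL libraries (linear axis from 0; 100% is the grey line). LIP libraries lie at 81.0 to 84.3% for the TRiC subunits, 62.1 to 67.1% for Hspd1 and Hspe1, and 52.7 to 54.0% for the HSP90 machinery. For immediate early genes, CTL 94 (68.9%) lies within the range of the LIP libraries (58.9 to 70.1%).

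After 2 days of culture with stimulation, no chaperonin gene passed the test for LIP against CTL. The test called 0% of the 14041 genes as higher and 0% as lower, 0 members among them, and the smallest adjusted p of any gene was 0.05683. By the unadjusted p of the same fit, 1 of 10 members (Cct4, higher in LIP) was under 0.05, where 8.33% of all genes tested were under it in that direction. DESeq2 called 485 genes on this day, with 0 members among them. Log2 fold changes of members ran from -0.12 for Cct8 to 0.31 for Cct4.

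Cct4 had 297, 283 and 341 CPM in CTL 92, 93 and 97, and 378, 418 and 358 CPM in LIP 90, 96 and 97. Its groups did not overlap, with LIP higher (log2 fold change 0.31, standard error 0.12, adjusted p = 0.2682). Cct5 had 316, 346 and 352 CPM in CTL and 425, 382 and 367 CPM in LIP, and Cct2 had 432, 461 and 481 CPM in CTL and 542, 498 and 530 CPM in LIP. These 3 genes of 10 had LIP higher without overlap, which was so for 10.9% of all genes tested. Their adjusted p-values were 0.42 for Cct5 (log2 fold change 0.20) and 0.46 for Cct2 (log2 fold change 0.18).

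For the other members the LIP group was split. Hspd1 had 727 CPM in LIP 90 but 448 and 423 CPM in LIP 96 and 97, against 454, 480 and 569 CPM in CTL 92, 93 and 97. LIP 90 was above every CTL library and the other LIP libraries below each of them. Cct8 had 459 CPM in LIP 90 and 256 and 275 CPM in LIP 96 and 97, against 357, 332 and 374 CPM in CTL, and Cct3 had 312 CPM in LIP 90 and 176 and 185 CPM in LIP 96 and 97, against 222, 228 and 269 CPM in CTL. The same order, with LIP 90 above all CTL libraries and LIP 96 and 97 below all of them, held for Tcp1 (643, 469 and 462 CPM in LIP; 494 to 535 CPM in CTL) and Cct6a (452, 284 and 275 CPM in LIP; 293 to 353 CPM in CTL). Hspe1 had 252, 178 and 154 CPM in LIP and 153 to 192 CPM in CTL, and Cct7 had 386, 331 and 297 CPM in LIP and 300 to 324 CPM in CTL.

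Several differences changed sign without LIP 90. In that fit, Cct8 fell at a log2 fold change of -0.40 (adjusted p = 0.039), the only member called, where 6.19% of all genes tested fell. Cct3 was at -0.39 (adjusted p = 0.056) and Cct4 at 0.35 (adjusted p = 0.082), and Hspd1 (-0.18), Cct6a (-0.17), Tcp1 (-0.13) and Hspe1 (-0.01) were the ones that turned negative.

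The unequal response within TRiC was seen in each of LIP 96 and LIP 97. Relative to the mean log2 CPM of the CTL libraries of day 2, LIP 96 ran from -0.47 for Cct8 to 0.45 for Cct4, a range of 0.92 over the 8 subunits. LIP 97 ran from -0.37 for Cct3 to 0.22 for Cct4, a range of 0.59. In LIP 90 all 8 subunits were higher, by 0.24 for Cct2 to 0.51 for Cct6a, a range of 0.27. Over the 3 CTL libraries of day 2 the ranges were 0.12, 0.17 and 0.16, and over the 6 libraries of day 0 between 0.16 and 0.37.

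The share of each subunit in the counts per kilobase of all 8 does not depend on how libraries are scaled. Cct4 made up 12.4%, 11.5% and 12.8% in CTL 92, 93 and 97. Its share was 16.6% in LIP 96 and 14.6% in LIP 97, but 11.9% in LIP 90. Cct8 made up 9.66%, 8.79% and 9.12% in CTL, 9.43% in LIP 90, and 6.62% and 7.30% in LIP 96 and 97. Cct3 made up 9.34%, 9.41% and 10.2% in CTL, 9.97% in LIP 90, and 7.11% and 7.65% in LIP 96 and 97. LIP 90 therefore lay within the CTL range for Cct3, Cct4 and Cct8, while LIP 96 and 97 lay outside it. The difference of the means, LIP minus CTL, was 2.17 percentage points for Cct4, -1.40 for Cct8 and -1.42 for Cct3, each with p = 0.3 in an exact two-sided permutation test, whose smallest possible p with 3 against 3 libraries is 0.1. Without LIP 90 these differences were 3.40, -2.23 and -2.28 percentage points, and without LIP 96 they were 1.04, -0.82 and -0.86. Over both days 16 such tests were made. On day 0, the share of Cct2 was higher in LIP (18.0% ± 0.742 against 16.6% ± 0.449, SD, n = 3, exact permutation p = 0.1) and that of Cct5 lower (10.1% ± 0.473 against 11.2% ± 0.224, exact permutation p = 0.1), both without overlap. Adjusted over the 16 tests by the Benjamini-Hochberg method, the smallest of these exact permutation p-values was 0.6.

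**Figure D3:**
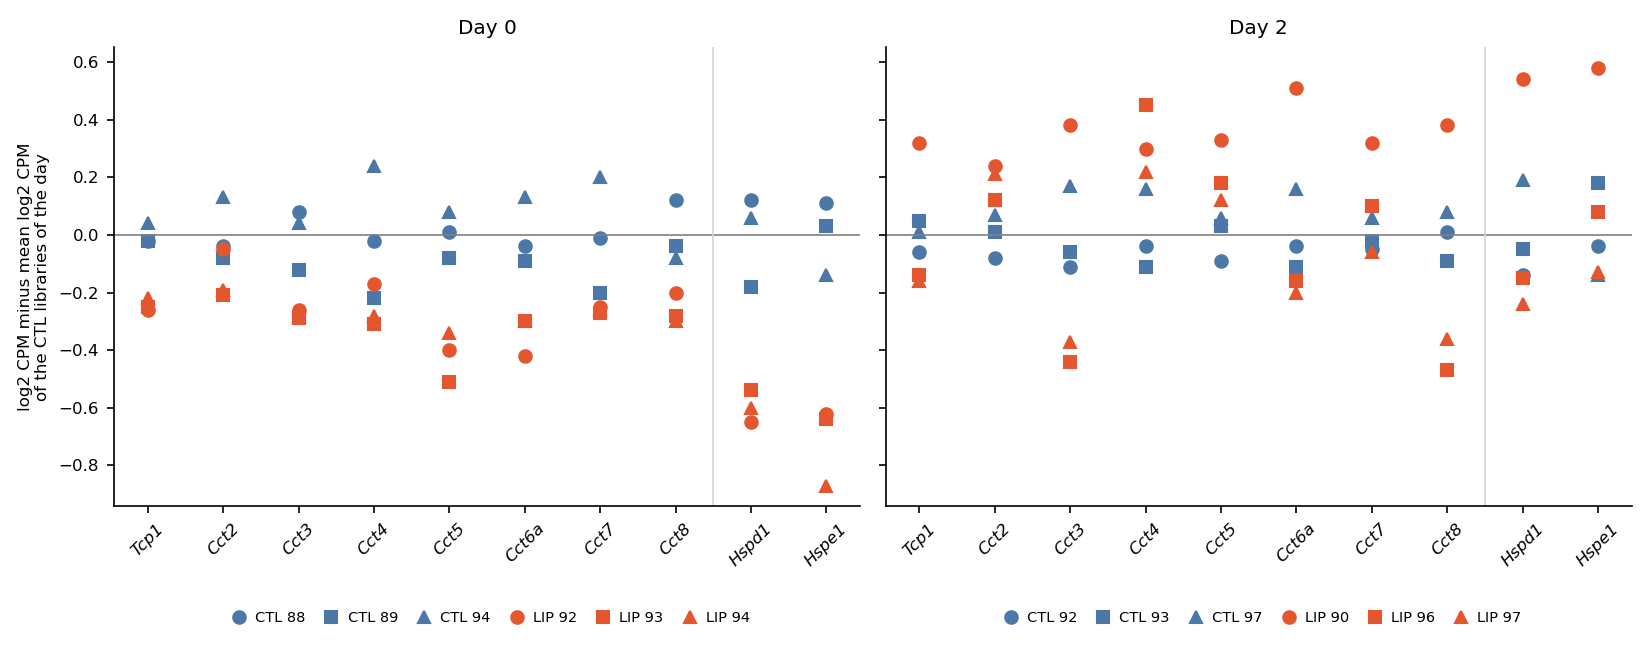
Log2 CPM of each gene in each library minus the mean log2 CPM of the 3 CTL libraries of the same day (0 is the grey line), for day 0 in the left panel and day 2 in the right panel, with TRiC subunits to the left of the vertical line and Hspd1 and Hspe1 to its right. On day 0 the LIP libraries lie together below 0, down to -0.87 for Hspe1 in LIP 94. On day 2, LIP 90 lies above 0 throughout and LIP 96 and LIP 97 spread from -0.47 to 0.45.

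Genes around the chaperonins also differed between LIP 90 and the other LIP libraries of day 2. The summed level of the 6 regulators of chaperone genes, which include the stress factors Atf4, Atf5 and Ddit3, was 478.9 to 512.8 CPM in CTL, 572.1 CPM in LIP 90, and 847.3 and 882.4 CPM in LIP 96 and 97. Without LIP 90, 7.74% of all genes tested were called higher and 6.19% lower. In that fit, 3 of these 6 rose and 0 fell (median log2 fold change 0.88), and 4 of the 14 other matrix chaperones and proteases rose and 1 fell (median 0.02). Of the TRiC clients, 1 rose and 5 fell of 16 (median -0.25), and of the HSP90 machinery 0 rose and 4 fell of 10 (median -0.33). Of 9 TRiC co-factors, 2 rose and 1 fell (median -0.07). Of 13 import genes 1 rose and 1 fell (median -0.01), as in the HSP70 machinery of 16 genes (median -0.06). Of 16 immediate early genes, 4 rose and 2 fell (median 0.16). With all 6 libraries of day 2, 0 genes of any of these lists were called. Markers of other cells were measured in the same libraries. The summed level of 6 B cell markers was 21.67 CPM in LIP 90 and 67.69 and 66.98 CPM in LIP 96 and 97, against 20.82, 22.57 and 61.32 CPM in CTL. That of 6 NK cell markers was 121.8 to 162.6 CPM in LIP and 71.66 to 89.2 CPM in CTL. Of the 3 that were tested, Gzmb (log2 fold change 1.04) and Prf1 (0.14) had higher and Nkg7 (-1.19) lower mean levels in LIP. Their median was 0.14 and 0 were called, while without LIP 90, 1 rose. From day 0 to day 2, 1 of the 6 NK cell markers rose and 4 fell in CTL, and 1 rose and 5 fell in LIP. The summed level of the 2 CD8 T cell markers was 4.926 CPM in LIP 90, 13.2 and 9.199 CPM in LIP 96 and 97, and 4.429 to 6.33 CPM in CTL. Without LIP 90, 1 of 6 B cell markers (median 1.77) and 1 of 2 CD8 T cell markers (median 1.27) rose. In the same fit 1 of 6 CD4+ T cell markers rose (median 0.07), and 0 markers of these 3 lists fell. The part of the markers of other cells in the result was not tested. Psph, which overlaps Cct6a on the opposite strand, had 1058 and 775 counts in LIP 96 and 97 and 217 to 382 counts in the other libraries of day 2. Whether the counting used strand is not given in the sources used here, so reads of the overlap cannot be told apart from those of Cct6a. Acat2, which overlaps Tcp1 on the opposite strand, had 366 and 242 counts in LIP 96 and 97 and 740 to 946 counts in the other libraries of day 2, and the same holds for it. Other overlaps on opposite strands have the same limit, among them Mrpl18 with Tcp1, Usp16 with Cct8, Mob4 with Hspd1, and Hspd1 with Hspe1. On day 2, Usp16 had 706 to 1225 counts and Mob4 320 to 568.

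Every chaperonin gene rose from day 0 to day 2 in both groups. In bulk RNA, more cells that express a gene and more RNA per cell cannot be told apart. Hspd1 rose the most, from 134 ± 14.3 CPM to 501 ± 60.0 CPM in CTL (SD, n = 3; log2 fold change 1.90, standard error 0.18, adjusted p = 6.447e-07) and from 88.5 ± 3.24 CPM to 533 ± 169 CPM in LIP (2.59, standard error 0.19, adjusted p = 4.168e-08). Hspe1 rose from a range of 57.6 to 68.7 CPM to one of 153 to 192 CPM in CTL (log2 fold change 1.41), and from 34.9 to 41.3 CPM to 154 to 252 CPM in LIP (2.32). Of the TRiC subunits, Tcp1 rose the most, from 159 ± 4.11 to 516 ± 20.3 CPM in CTL (log2 fold change 1.70) and from 135 ± 2.13 to 525 ± 103 CPM in LIP (1.96). Cct3 rose the least, from 126 ± 9.38 to 240 ± 25.8 CPM in CTL (0.93) and from 104 ± 1.00 to 224 ± 75.8 CPM in LIP (1.11). All 10 members were called higher in each group, where 35.3% of the 15475 genes tested were called higher in CTL and 36.6% in LIP. Both comparisons kept all 10 calls in every alternative fit and without any single library, with adjusted p-values in edgeR and DESeq2 up to 0.00286, or up to 0.02013 with the number in the labels as a block.

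**Figure D4:**
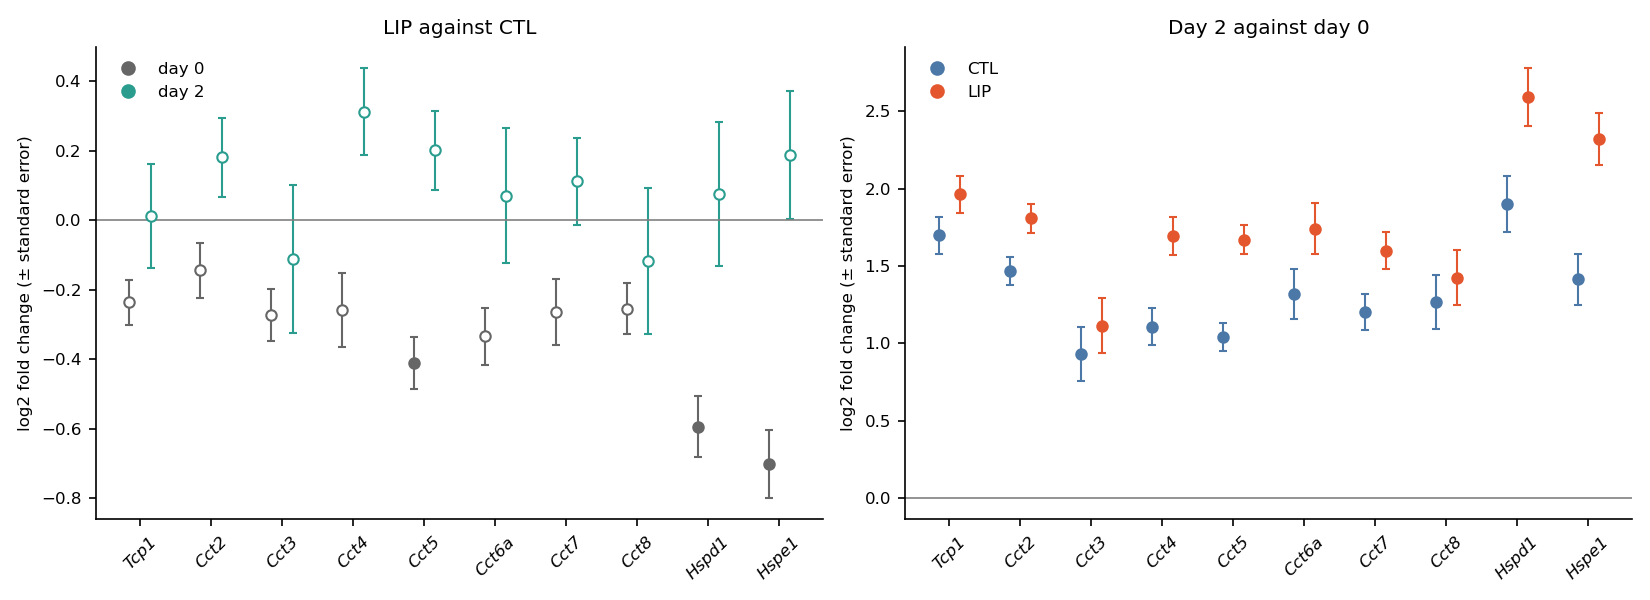
Log2 fold changes with standard errors of LIP against CTL on each day (left, day 0 in grey and day 2 in green) and of day 2 against day 0 in each group (right, CTL in blue and LIP in orange). Filled points have an adjusted p under 0.05. On the left, points of day 0 lie below 0 for all 10 genes and 3 are filled, while those of day 2 lie between -0.12 and 0.31 and none is filled. On the right all points are filled, from 0.93 for Cct3 in CTL to 2.59 for Hspd1 in LIP.

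Many, but not all, partners and clients of the chaperonins also rose, beside the 35.3% and 36.6% of all genes tested that rose in CTL and LIP. Of 9 TRiC co-factors, 6 rose in CTL and 8 in LIP and 0 fell in either (medians 0.84 and 1.16), led by the prefoldin subunit Pfdn1 (log2 fold change 2.28 in CTL and 2.27 in LIP), followed by Pfdn6 (1.54 in CTL) and Pfdn4 (1.40 in CTL) in both groups. Of 16 clients, 12 rose in CTL and 14 in LIP and 0 fell, with medians of 1.31 and 1.56. The client with the largest rise was Cdc20, an activator of the anaphase-promoting complex (3.98 in CTL and 3.16 in LIP), and Tuba1c, an alpha tubulin, rose by 2.98 in CTL and 2.81 in LIP. Of 14 other matrix chaperones and proteases, 10 rose and 1 fell in CTL and 11 rose and 1 fell in LIP. Among them were the protease Lonp1 (1.62 in CTL and 2.52 in LIP) and Hspa9, the HSP70 of the matrix (1.43 and 2.31). Of 13 import genes, 11 rose and 1 fell in each group, led by Timm50 (2.02 and 2.19). All 15 proliferation genes rose, with medians of 3.33 and 3.69. Of 16 genes of the HSP70 machinery, 8 rose in each group, and 7 fell in CTL and 3 in LIP, where 33.7% of all genes tested fell in CTL and 35.2% in LIP. Without LIP 90, 5 of them fell in LIP, and without CTL 94, 5 fell in CTL. Differences between the groups in these list counts were not tested. Without LIP 90 the order of the groups turned for clients and for matrix genes, and the co-factor counts were equal. In that fit the co-factors had 7 higher genes in each group (medians 0.85 in both). The clients then had 12 higher genes in CTL (median 1.31) and 11 higher and 1 lower in LIP (median 1.19), and of the other matrix chaperones and proteases 11 rose in CTL and 9 in LIP.

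Whether the rise from day 0 to day 2 differed between the groups was tested as the interaction of group and day. The log2 difference of the rises, LIP minus CTL, was above 0 for all 10 genes, from 0.16 for Cct8 to 0.91 for Hspe1, but 0 members were called, where 0.0323% of the 15475 genes tested were called with a positive difference. The smallest adjusted p-values were 0.083 for Cct5 (0.63) and 0.1 for Hspe1. At an unadjusted p under 0.05 there were 6 of the 10 with a positive difference, against 8.65% of all genes tested. That count was 4 without CTL 94, against 7.45%, and 5 without LIP 90, against 12.3%. Without LIP 90, 3 members were called (Cct5 at 0.57, Cct4 at 0.60 and Hspe1 at 0.68), where 5.64% of all genes tested were called in that direction, and Cct3 and Cct8 changed sign (-0.13 and -0.16). Without CTL 94, 0 members were called. DESeq2 called 3 members, again Cct5, Cct4 and Hspe1, among 520 genes called in either direction. The interaction, the comparisons of days and those of groups share libraries, so their values are given side by side and not as separate evidence.

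The ratio of ring to lid in the mitochondrial chaperonin did not differ beyond the spread between libraries. Per kilobase, the log2 ratio of Hspd1 to Hspe1 was -0.54 ± 0.21 (SD, n = 3) in CTL and -0.43 ± 0.14 in LIP on day 0, a difference within the spread (exact two-sided permutation p = 0.5). On day 2 it was -0.05 ± 0.30 in CTL and -0.17 ± 0.10 in LIP (exact two-sided permutation p = 0.7). The spread in CTL of day 2 came from CTL 97, with 0.29, against -0.14 and -0.28 in CTL 92 and 93. Without CTL 97 the difference between LIP and CTL on day 2 was 0.041 in place of -0.12. The smallest p that 3 against 3 libraries allow is 0.1, so that these tests could not pass a threshold of 0.05. The ratio itself depends on the gene lengths used, but its difference between groups does not.

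Across the 12 libraries the profiles of the members were alike, and all points share the difference between days. Pearson's r between a gene's log2 CPM and the mean standardized profile of the other TRiC subunits was between 0.955 for Cct3 and 0.995 for Cct7 among the 8 subunits, and 0.997 for Hspd1 and 0.979 for Hspe1. Among 15466 genes, Hspd1 ranked 2, Cct7 ranked 7, Tcp1 ranked 8 and Cct6a ranked 11, whereas Cct3 ranked 1637 and Cct4 ranked 878. The genes that were most like the TRiC profile and are not members were C1qbp, Stt3a, Ipo7, Nup50, Hspa4, Rangap1, Rpn2, Nasp, Dnajb11 and Ranbp1, with r from 0.998 for C1qbp to 0.993 for Ranbp1. Those most like the mean of Hspd1 and Hspe1 were Rangap1, Rad21, Dbf4, Cops4 and Lin9, with r from 0.993 to 0.991. The 12 points share 2 days and 4 groups. When each library was taken as its deviation from its group mean, r with the other subunits fell to 0.368 for Cct4, 0.591 for Cct2 and 0.488 for Hspe1, and was between 0.696 and 0.914 for the other members.

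Several records that resemble the members by name took few counts. Cct6b, a testis form of the zeta subunit, and Cct8l1 had at most 5 counts in any library, and the annotated pseudogenes of Tcp1, Cct3, Hspd1 and Hspe1 had at most 9.

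The members lie on 9 chromosomes of GRCm39, and their bounds follow the GENCODE annotation. Tcp1 (ENSMUSG00000068039) lies on chromosome 17 from 13134588 to 13163066. Cct2 (ENSMUSG00000034024) lies on chromosome 10 from 116886897 to 116899744, and Cct3 (ENSMUSG00000001416) on chromosome 3 from 88204289 to 88230423. Cct4 (ENSMUSG00000007739) lies on chromosome 11 from 22940379 to 22956236, and Cct5 (ENSMUSG00000022234) on chromosome 15 from 31588834 to 31601959. Cct6a (ENSMUSG00000029447) lies on chromosome 5 from 129864049 to 129875406, and Cct7 (ENSMUSG00000030007) on chromosome 6 from 85428439 to 85445708. Cct8 (ENSMUSG00000025613) lies on chromosome 16 from 87279168 to 87292801. Hspd1 (ENSMUSG00000025980) lies on chromosome 1 from 55116989 to 55171038 on the minus strand, and Hspe1 (ENSMUSG00000073676) from 55127260 to 55130476 on the plus strand, so that the annotated bounds of the pair overlap.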

How the data were processed

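Libraries were made from splenic CD4+ T cells after ribosomal RNA depletion with a directional kit, and the deposited values are expected counts per gene, which the authors made with RSEM 1.3.0 and Bowtie2 on GRCm39 (reads were also mapped with HISAT2) after FastQC 0.11.9 and Trimmomatic (0.38 in the submitters' processing notes). The strand setting of the counting and whether replicates were pooled are not given in the sources used here. The authors' tables also hold their own fold changes and p-values, which were not used, and 2 library columns of the day 2 table that match no labelled sample, which were not used either. RSEM spreads reads between similar genes, so the counts of near-identical copies are estimates.

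Counts of 55414 records (27193 at 0 in every library, 73267 values not whole) were rounded and fitted with edgeR 4.0.16 in R 4.3.3 (filterByExpr, TMM, quasi-likelihood F test, Benjamini-Hochberg adjustment over all genes tested, threshold 0.05). LIP and CTL were compared within a day on 6 libraries. Days and the interaction were compared on 12 libraries in 4 groups. The standard error was the log2 fold change divided by the square root of F. Log2 CPM for profiles used a pseudocount of 0.5 CPM. Shares and ratios were compared by exact two-sided permutation tests, whose smallest p is 0.1 with 3 against 3. The alternatives tried were DESeq2 1.42.0, other normalizations (upper quartile and RLE), no filter, at least 10 counts in every library, another set of libraries in the fit, other gene lengths (the canonical transcript was added after the data were seen), the number in the labels as a block (also added then) and leaving out each library. The code was tested on simulated data. A floor of 3 counts was 0.233 to 0.48 CPM, which covers counting error only. Promoter windows (250 bases before to 50 after) came from GENCODE M39, which holds 54749 of the records. All members are named, with at most the 3 called genes of largest change from each other list and comparison, and the 10 (TRiC) or 5 (Hspd1 and Hspe1) genes of highest correlation. The members and lists were chosen with earlier results of these data known.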

Additional observations from a re-analysis of the deposited data

Results flagged for a closer look

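Cct5 was singled out because its difference between LIP and CTL cells pointed in opposite directions on the 2 days, without overlap between the groups on either. It was lower in every LIP library on day 0 (log2 fold change -0.41, adjusted p = 0.03995) and higher in every LIP library on day 2 (0.20, adjusted p = 0.4158). The difference of the log2 fold changes, tested as the interaction of group and day, was 0.63 (standard error 0.13, adjusted p = 0.08319).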

How the results depend on the processing

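On day 0 the number of members called was 3 or 4 in 5 of 6 alternatives and 0 with all 12 libraries in one fit, and it ranged from 0 to 4 when each library was left out. On day 2 it was 0 in all 6 alternatives and 0 to 1 without each library. For the interaction it was 0, but 3 by DESeq2, 4 with no filter, and 0 to 3 without each library. The day comparisons kept all 10 in every alternative. Over all genes, day 0 calls (60) became 202 by DESeq2, 645 with no filter, 12 in the 12-library fit and 13 to 658 without each library. Day 2 calls (0) became 485, 662 and 775, and 0 to 2014 without each library. Interaction calls (8) became 520 by DESeq2, 815 with no filter and 1 to 1596 without each library. On day 2 the log2 fold change of Tcp1 was -0.0039 with upper-quartile normalization. Without each library, it ranged from -0.13 to 0.10 for Tcp1, from -0.17 to 0.20 for Cct6a, from -0.18 to 0.22 for Hspd1, from -0.012 to 0.33 for Hspe1, from -0.39 to 0.047 for Cct3 and from -0.40 to 0.048 for Cct8. The interaction then ranged from -0.13 to 0.33 for Cct3 and from -0.16 to 0.32 for Cct8. The differences between LIP and CTL in the shares and the ratio moved by less than the larger group SD, but that SD includes LIP 90 and CTL 97. Without LIP 90 the day 2 share difference of Cct4 went from 2.17 to 3.40 percentage points, and the day 2 log2 ratio difference ranged from -0.24 to 0.041 without each library. The shares and the ratio themselves depend on the gene lengths. The cause of these changes was not tested. Any 2 groups compared share at most 1 replicate number, but 92 and 93 recur in LIP of day 0 and CTL of day 2. With the number as a replicate block over 12 libraries, added after the data were seen and with 1 residual degree of freedom, both day comparisons kept 10 members, and the interaction called 0 members and 550 genes, with -0.22 for Cct3 and for Cct8. Between same-numbered libraries, r of the deviations from the group means was -0.05 to 0.11 over genes in 4 pairs. What the number stands for is not given in the labels, and a shared origin was not tested.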
